A study of Rattus norvegicus with 4 samples.

Results

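The miR-17-92 cluster and its paralog miR-106b-25 were followed in small RNA libraries of rat aortic vascular smooth muscle cells by 9 mature miRNAs, of 692 distinct mature sequences that RefSeq annotates in the rat and 406 of these with reads here. They are the 6 mature miRNAs miR-17-5p, miR-18a-5p, miR-19a-3p, miR-20a-5p, miR-19b-3p and miR-92a-3p of the first cluster and the 3 mature miRNAs miR-106b-5p, miR-93-5p and miR-25-3p of the second. A read was given to a member if its first 18 nt were identical to those of the member's RefSeq sequence, and no member shared these 18 nt with another annotated miRNA. There were 4 libraries, 1 for each condition: untreated control cells, and cells given angiotensin II (Ang II, 100 nM), a peptide hormone that constricts vessels, for 1 h, 3 h and 24 h. All cells came from the aorta of Sprague-Dawley rats and had been without serum for 48 h before Ang II was or was not added. How many animals or cultures gave each library was not stated. With 1 library per condition there was no replicate check, so no test of conditions was made. The label of the control gives no hour of harvest, so a difference due to Ang II cannot be told apart from one due to hours spent in the dish. All 3 comparisons use the same control library.

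The members of a cluster are cut from 1 long primary transcript by the nuclear enzyme Drosha, and each hairpin is then trimmed by Dicer to a duplex of 2 arms, of which 1 usually persists. In human and mouse cells MYC and E2F factors activate the miR-17-92 transcript, and its miRNAs are known to promote proliferation and survival. The miR-106b-25 hairpins lie inside Mcm7, a gene of the replication licensing complex, and in the rat annotation all 3 lie within the span of Mcm7 and on its strand. A miRNA finds its targets mainly by its seed, bases 2 to 8, and the members carry 4 seeds. The miR-17 seed is known in human and mouse cells for repressing the cell cycle inhibitor p21 (Cdkn1a), and the miR-92 seed for repressing integrin alpha 5 in endothelium.

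The mature sequences are shown because the 2 clusters share seeds: each line is a RefSeq sequence (build GRCr8), 5′ to 3′, with the seed in capitals. The first 4 have the miR-17 seed, which occurs in both clusters.
miR-17-5p: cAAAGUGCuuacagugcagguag
miR-20a-5p: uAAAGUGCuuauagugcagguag
miR-106b-5p: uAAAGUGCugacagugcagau
miR-93-5p: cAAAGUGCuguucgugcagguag
miR-18a-5p: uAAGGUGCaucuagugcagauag
miR-19a-3p: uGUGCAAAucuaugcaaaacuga
miR-19b-3p: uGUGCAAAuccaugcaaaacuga
miR-92a-3p: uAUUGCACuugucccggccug
miR-25-3p: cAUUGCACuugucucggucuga
The miR-18 seed belongs to miR-18a-5p alone, the miR-19 seed to the 2 miR-19 miRNAs of the miR-17-92 cluster, and the miR-92 seed to miR-92a-3p of one cluster and miR-25-3p of the other. In GRCr8 the miR-17-92 sequences run along the plus strand of chromosome 15, from miR-17-5p at chr15:98587861-98587883 to miR-92a-3p at chr15:98588602-98588622. The miR-106b-25 sequences run along the minus strand of chromosome 12, from miR-106b-5p at chr12:22157103-22157123 over miR-93-5p at chr12:22156894-22156916 to miR-25-3p at chr12:22156652-22156673.

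Between 13119417 reads (1 h) and 14534892 reads (24 h) were deposited for a library, and levels are given as RPM, reads per 1000000 of them. Annotated miRNAs took 68.4% to 74.4% of the reads. Intervals in parentheses are exact 95% intervals that cover the counting of reads alone and no spread between cultures. Copies made by PCR are not separate molecules, so for molecules the intervals can be too narrow. The smooth muscle miRNAs miR-143-3p and miR-145-5p summed to 250472 RPM in the control, 305240 RPM at 1 h, 312175 RPM at 3 h and 307997 RPM at 24 h. Nearly all of this sum was miR-143-3p, with 3572930 reads in the control against 32749 of miR-145-5p. The higher sums in the Ang II libraries are therefore those of miR-143-3p. For miR-145-5p the raw counts, not scaled to depth, were 31760 (1 h), 31848 (3 h) and 35806 (24 h). The endothelial miR-126a-3p lay between 96.3 and 115 RPM, and of the 4 blood miRNAs found in the annotation 2 had no read in any library and the sum lay between 0.457 and 0.757 RPM.

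In the 24 h library both clusters were lower than in the control. The miR-17-92 members summed to 898 RPM in the control, 856 RPM at 1 h, 910 RPM at 3 h and 594 RPM at 24 h. The sum at 24 h was thus 0.662 times the control (0.644 to 0.680), while at 1 h it was 0.953 times (0.929 to 0.978) and at 3 h 1.01 times the control (0.989 to 1.04). The miR-106b-25 members summed to 2912 RPM in the control, 2361 RPM at 1 h, 2407 RPM at 3 h and 1731 RPM at 24 h. This sum already stood at 0.811 times the control level after 1 h (0.799 to 0.823) and at 0.827 times after 3 h (0.815 to 0.839), and at 0.594 times at 24 h (0.585 to 0.604). It mainly follows miR-93-5p, which held 76.6% of the cluster's reads in the control, 74.0% at 1 h and 72.2% at 3 h and at 24 h. At 1 h and 3 h miR-25-3p was lower too (0.767 and 0.788 times the control). miR-106b-5p was not (0.991 and 1.12 times). Between the 24 h and 3 h libraries the ratio was 0.653 (0.636 to 0.671) for miR-17-92 and 0.719 (0.707 to 0.731) for miR-106b-25.

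A member was called higher or lower where log2((RPM + 1)/(RPM + 1)) against the control passed 1.5-fold and the higher library held at least 100 reads. Of the 9 members 8 reached 100 reads, and 3 of these were lower at 24 h: miR-93-5p, miR-92a-3p and miR-18a-5p. In that comparison 16.4% of 177 annotated miRNAs were lower, so the share among the members, with 3 of 8, is to be read against 29 of 177. No member was higher at 24 h, where 5.08% of the miRNAs were. At 1 h and at 3 h no member was lower or higher, against 2.31% of 173 miRNAs in each direction at 1 h and 4% of 175 in each direction at 3 h. Just inside the limit of 1.5-fold were miR-18a-5p and miR-92a-3p, both at a log2 ratio of -0.68, and just outside it miR-17-5p at -0.57 and miR-20a-5p at -0.56. The median log2 ratio at 24 h was -0.56 over the 8 members and -0.25 over all 177 miRNAs, and 8 of the 8 members lay under the median of all miRNAs. A scaling moves the members and that median by about the same amount. The count, 8 of 8 under each of the 3 other scalings too, could therefore hardly change and is not tested by them. The calls did move. With TMM factors the medians were -0.31 for the members and 0.01 for all miRNAs. There 0 members were called lower, against 5.08% of all miRNAs. Scaled to annotated miRNA reads 6 members were called lower, against 23.2% of all miRNAs, with medians of -0.64 for the members and -0.32 for all miRNAs. With median-of-ratios factors 1 member was called lower, against 6.21% of all miRNAs.

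**Figure D1:**
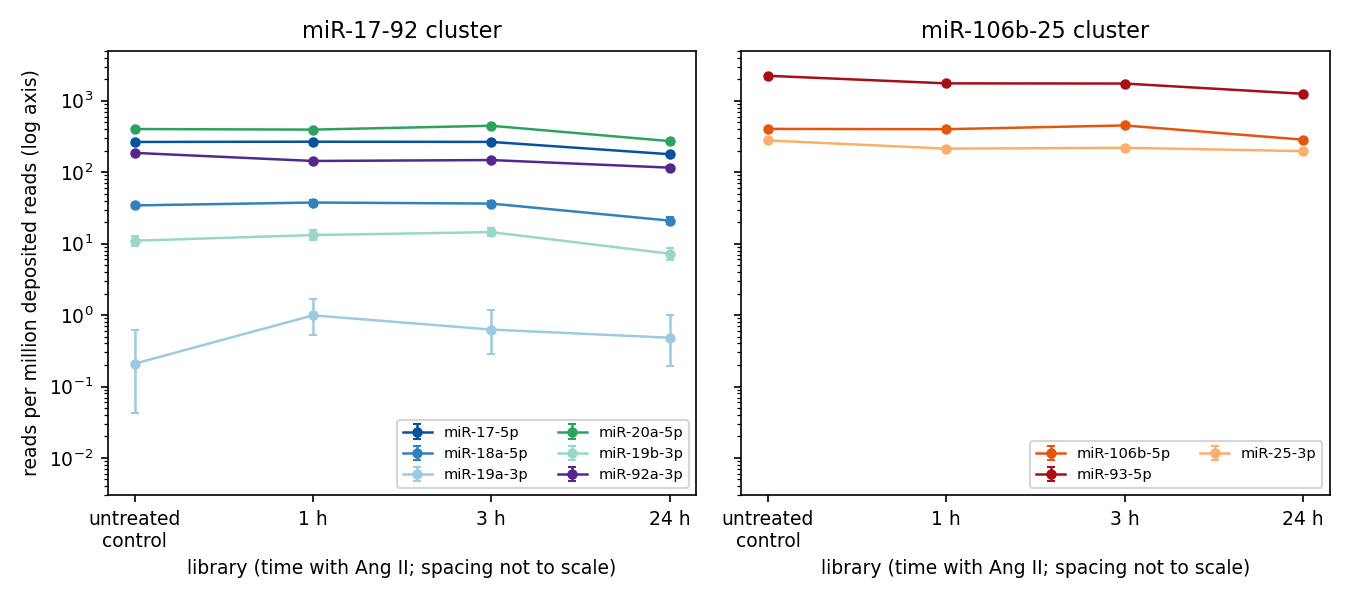
Level of each member in the 4 libraries, in RPM of the deposited reads on a log axis, with exact Poisson 95% intervals for counting error. The left panel holds the miR-17-92 cluster, whose members span from under 1 RPM (miR-19a-3p) to about 400 RPM (miR-20a-5p), and the right panel the miR-106b-25 cluster, led by miR-93-5p at 1249 RPM at 24 h and 2231 RPM in the control.

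The most abundant seed was that of miR-17, held by miR-93-5p, miR-106b-5p, miR-20a-5p and miR-17-5p. miR-93-5p was the most read member in every library, with 2231 RPM in the control, 1748 RPM at 1 h, 1738 RPM at 3 h and 1249 RPM at 24 h. It was highest in the control and lowest at 24 h, where it stood at 0.560 times the control (0.550 to 0.570). By reads it held place 25 among all miRNAs in the control, place 30 at 1 h, place 29 at 3 h and place 35 at 24 h.

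miR-106b-5p, cut from the same transcript as miR-93-5p, had 403 RPM in the control, 399 RPM at 1 h, 451 RPM at 3 h and 285 RPM at 24 h. Unlike miR-93-5p it was highest at 3 h, at 1.12 times the control (1.08 to 1.16), and at 24 h it was at 0.707 times the control (0.679 to 0.736).

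miR-20a-5p of the miR-17-92 cluster had almost the same values, 401 RPM in the control, 394 RPM at 1 h, 446 RPM at 3 h and 272 RPM at 24 h. The reads of miR-106b-5p and miR-20a-5p could not be told apart by counting error in the control, 1 h and 3 h libraries, where their ratio was 1.00 (0.968 to 1.04), 1.01 (0.976 to 1.05) and 1.01 (0.976 to 1.05), and they differed slightly at 24 h (1.05, 1.00 to 1.09). These 2 miRNAs share their seed but come from different chromosomes.

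miR-17-5p had 265 RPM in the control, 267 RPM at 1 h, 265 RPM at 3 h and 178 RPM at 24 h, so that only the 24 h library stood apart, at 0.673 times the control (0.640 to 0.707). Summed over both clusters, the miR-17 seed had 3300 RPM in the control, 2808 RPM at 1 h, 2899 RPM at 3 h and 1984 RPM at 24 h, most of it miR-93-5p in every library. Its share of the members' reads was 86.6% in the control (86.3 to 86.9), 87.3% at 1 h (87.0 to 87.6), 87.4% at 3 h (87.1 to 87.7) and 85.3% at 24 h (84.9 to 85.7), above the control at 1 h and 3 h and below it at 24 h.

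The miR-92 seed came next. miR-92a-3p had 186 RPM in the control, 143 RPM at 1 h, 148 RPM at 3 h and 116 RPM at 24 h, which is 0.621 times the control at 24 h (0.584 to 0.661). miR-25-3p had 278 RPM in the control, 213 RPM at 1 h, 219 RPM at 3 h and 197 RPM at 24 h, or 0.709 times the control at 24 h (0.675 to 0.744). Both were highest in the control and already lower at 1 h. Together they stood at 0.768 times their control level after 1 h (0.740 to 0.798), 0.790 times after 3 h (0.762 to 0.820) and 0.674 times after 24 h (0.649 to 0.700). They made up 12.2% of the members' reads in the control (11.9 to 12.5), 11.1% at 1 h (10.8 to 11.4), 11.1% at 3 h (10.8 to 11.3) and 13.4% at 24 h (13.1 to 13.8), below the control at 1 h and 3 h and above it at 24 h.

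The miR-18 and miR-19 seeds were scarce. miR-18a-5p had 34.2 RPM in the control, 37.6 RPM at 1 h, 36.3 RPM at 3 h and 21.0 RPM at 24 h, and at 24 h it was at 0.613 times the control (0.529 to 0.708). miR-19b-3p had 11.0 RPM in the control, 13.2 RPM at 1 h, 14.5 RPM at 3 h and 7.22 RPM at 24 h, which is 1.32 times its control level after 3 h (1.07 to 1.63) and 0.658 times after 24 h (0.509 to 0.848). miR-19a-3p was the member under 100 reads, with 3 reads in the control, 13 reads at 1 h, 9 reads at 3 h and 7 reads at 24 h. No direction is drawn for it on 3 control reads. The ratio to the control was 4.75 at 1 h (1.31 to 26.0), 3.01 at 3 h (0.750 to 17.3) and 2.31 at 24 h (0.528 to 13.9). The 6 miRNAs that 1 primary transcript gives thus ranged from 0.208 RPM for miR-19a-3p to 401 RPM for miR-20a-5p in the control. Their order by level, miR-20a-5p, miR-17-5p, miR-92a-3p, miR-18a-5p, miR-19b-3p and miR-19a-3p, was the same in all 4 libraries, with every neighbour apart by more than counting error. In this ligation-based method reads per molecule can differ between sequences, so an order of reads is not an order of molecules.

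At 1 h and 3 h the members fell into 2 groups that cut across the clusters. miR-93-5p, miR-25-3p and miR-92a-3p had log2 ratios of -0.35, -0.38 and -0.37 at 1 h and of -0.36, -0.34 and -0.33 at 3 h. miR-17-5p, miR-20a-5p and miR-106b-5p had 0.01, -0.03 and -0.01 at 1 h and 0.00, 0.15 and 0.16 at 3 h. miR-18a-5p (0.13 and 0.08) and miR-19b-3p (0.24 and 0.37) lay on the side of the second group. No member of either group reached 1.5-fold, and the 3 lower members were also the 3 under the median of all miRNAs, which was -0.09 at 1 h and -0.05 at 3 h. The 3 other scalings move the members and that median by about the same amount. They gave the same count of 3 of 8 and do not test it. Ratios near 0 change sign with the scaling. Where the RefSeq sequence alone is counted, miR-92a-3p leaves the lower group at 3 h, with a log2 ratio of 0.17 on 22 reads against 18 in the control. The split follows neither cluster nor seed, since miR-93-5p and miR-106b-5p share both, and it was seen in these values and then described.

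**Figure D2:**
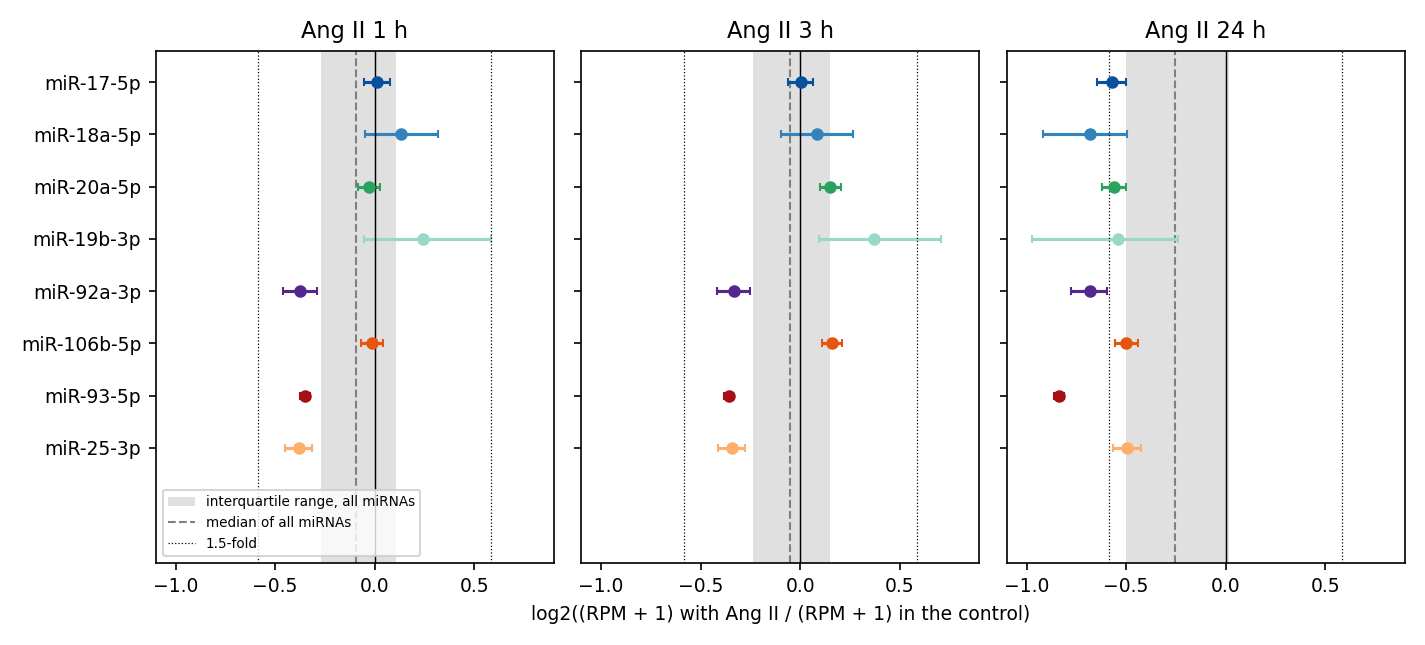
Log2 ratio to the control of the 8 members with 100 reads at 1 h, 3 h and 24 h (points, from RPM + 1). The lines through the points are exact 95% intervals for counting error of the RPM ratio without the added 1. They are therefore not centred on the points of scarce members. The grey band is the interquartile range of all annotated miRNAs with 100 reads, the dashed line their median and the dotted lines 1.5-fold; miR-92a-3p, miR-93-5p and miR-25-3p lie left of the others at 1 h and 3 h, and at 24 h all 8 lie left of the median of -0.25.

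Ratios of reads within 1 library need no scaling between libraries. They restate the split from the same counts and are not separate evidence for it. The ratio of miR-93-5p to miR-106b-5p was 5.54 in the control (5.38 to 5.69), 4.38 at 1 h (4.25 to 4.51), 3.86 at 3 h (3.75 to 3.96) and 4.38 at 24 h (4.24 to 4.54). The ratio of miR-25-3p to miR-106b-5p was 0.690 in the control (0.663 to 0.718), 0.534 at 1 h (0.510 to 0.559), 0.486 at 3 h (0.466 to 0.508) and 0.692 at 24 h (0.659 to 0.725). Inside the miR-17-92 cluster the ratio of miR-92a-3p to miR-20a-5p was 0.464 in the control (0.443 to 0.485), 0.364 at 1 h (0.345 to 0.384), 0.331 at 3 h (0.315 to 0.348) and 0.425 at 24 h (0.402 to 0.450). All 3 ratios were lowest at 3 h, and for miR-25-3p and miR-92a-3p the 24 h interval met that of the control.

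Within the early lower group the ratios moved little until 24 h. The ratio of miR-92a-3p to miR-25-3p, which share a seed, was 0.669 in the control (0.637 to 0.703), 0.672 at 1 h (0.634 to 0.713) and 0.674 at 3 h (0.637 to 0.712), and 0.587 at 24 h (0.553 to 0.624). The ratio of miR-93-5p to miR-25-3p was 8.02 in the control (7.76 to 8.29), 8.20 at 1 h (7.88 to 8.53) and 7.93 at 3 h (7.64 to 8.23), and 6.34 at 24 h (6.09 to 6.60). miR-25-3p thus differed from the other two only in the 24 h library. The ratio of miR-20a-5p to miR-17-5p was 1.52 in the control (1.46 to 1.58), 1.48 at 1 h (1.41 to 1.54), 1.68 at 3 h (1.62 to 1.75) and 1.53 at 24 h (1.45 to 1.60), so that 3 h was the one library above the rest. Over the whole clusters, miR-106b-25 reads outnumbered miR-17-92 reads 3.24-fold in the control (3.18 to 3.31), 2.76-fold at 1 h (2.70 to 2.82), 2.65-fold at 3 h (2.59 to 2.70) and 2.91-fold at 24 h (2.84 to 2.98). Most of the miR-106b-25 reads were miR-93-5p. These pairs were chosen after the members' levels had been seen.

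**Figure D3:**
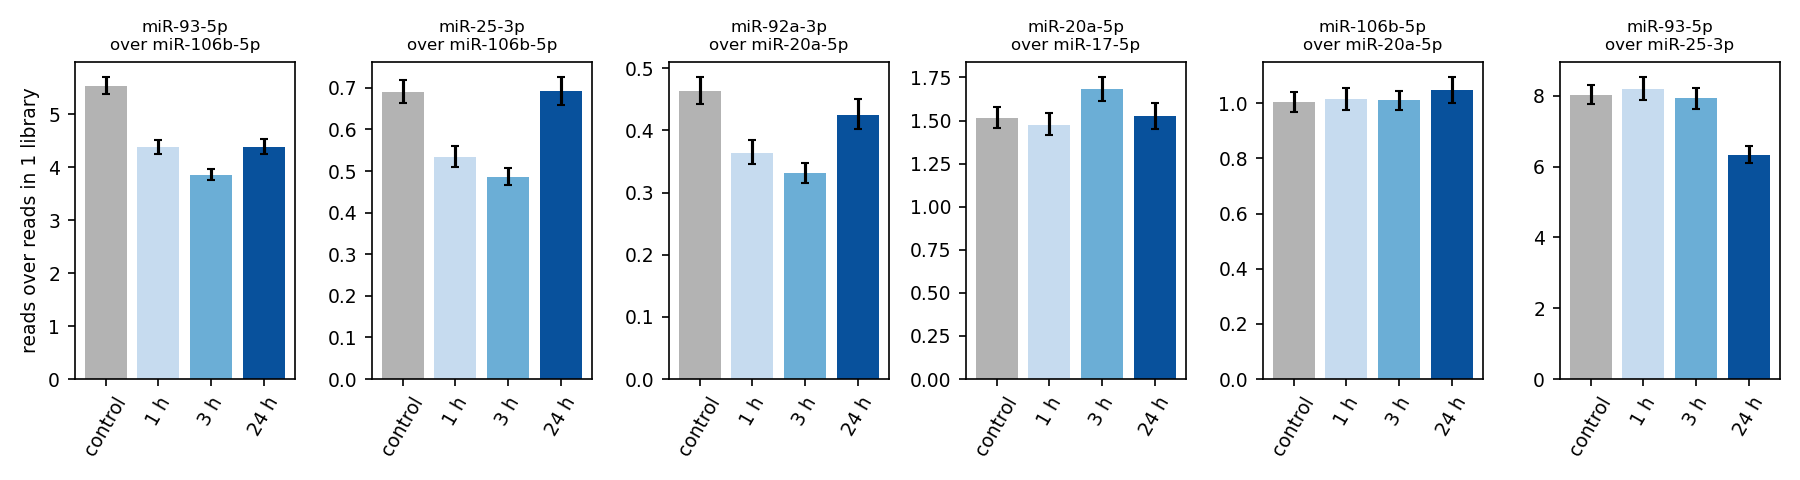
Reads of one member over reads of another in the same library, for 6 pairs (bars, from 0, with exact 95% binomial intervals for counting error). The 3 left panels, with miR-93-5p, miR-25-3p or miR-92a-3p on top, are lowest at 3 h; miR-106b-5p over miR-20a-5p stays between 1.00 and 1.05.

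Base composition moved with the split. The 3 lower members had the highest GC content of the members, 57.1% for miR-92a-3p, 52.2% for miR-93-5p and 50% for miR-25-3p, against 47.8% for miR-17-5p, 43.5% for miR-18a-5p, 42.9% for miR-106b-5p and 39.1% for miR-20a-5p and miR-19b-3p. Over all annotated miRNAs with 100 reads GC content and the log2 ratio had a weak negative correlation, with Spearman's rho of -0.28 at 1 h (173 miRNAs), -0.33 at 3 h (175) and -0.27 at 24 h (177), which is a description of these libraries, all set against 1 control. The part of base composition in the ratios was not tested.

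The rarer arms of the same hairpins gave a second reading of each cluster. miR-106b-3p had 567 reads in the control, 402 reads at 1 h, 403 reads at 3 h and 381 reads at 24 h, which is 0.778 (0.683 to 0.886), 0.712 (0.625 to 0.810) and 0.666 times the control (0.583 to 0.759) in RPM. At 1 h and 3 h this arm stood with miR-93-5p and miR-25-3p, not with miR-106b-5p of its own hairpin, and its share of the hairpin's mature reads was 7.13% at 1 h (6.47 to 7.83), 5.86% at 3 h (5.32 to 6.44) and 8.43% at 24 h (7.63 to 9.28), against 8.91% in the control (8.22 to 9.63). miR-17-1-3p had 142 reads in the control, 101 reads at 1 h, 128 reads at 3 h and 101 reads at 24 h, and its share, 3.75% at 24 h (3.07 to 4.54) against 3.59% in the control (3.03 to 4.22), stayed within counting error.

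miR-92a-1-5p had 83 reads in the control, 68 reads at 1 h, 78 reads at 3 h and 20 reads at 24 h. It stood at 0.239 times its control level after 24 h (0.139 to 0.393), below all 8 members with 100 reads, and its share of the reads of this arm and miR-92a-3p together, to which Mir92a2 could also add, was 1.18% at 24 h (0.720 to 1.81) against 3.01% in the control (2.40 to 3.71). With at most 83 reads in a library, miR-92a-1-5p was itself under the minimum of 100 reads for a call. Its sequence is shown with its seed in capitals because it sets this hairpin apart from its copy on the X chromosome.
miR-92a-1-5p: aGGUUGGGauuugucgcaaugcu
miR-92a-2-5p: aGGUGGGGauuagugccauuac
miR-18a-3p went the other way in counts, with 9 reads in the control, 16 reads at 1 h, 17 reads at 3 h and 17 reads at 24 h, on which the ratio at 24 h was 1.87 (0.789 to 4.76). miR-25-5p had 28, 18, 16 and 15 reads in the control, 1 h, 3 h and 24 h libraries, and miR-93-3p, miR-20a-3p, miR-19a-5p and miR-19b-1-5p each had at most 9 reads in a library.

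Another copy of these miRNAs lies on the X chromosome, and it shares mature sequences with the cluster on chromosome 15. RefSeq gives miR-17-5p to Mir17 and to Mir106a, miR-19b-3p to Mir19b1 and Mir19b2, and miR-92a-3p to Mir92a1 and Mir92a2, the second gene of each pair being on the X chromosome. Only the other arm or the flanking bases can tell the copies apart. The X-linked arms miR-17-2-3p, miR-19b-2-5p, miR-92a-2-5p, miR-20b-3p and miR-363-5p had 0 reads in all 4 libraries, which allows up to 3 reads of 56420015, or 0.0532 RPM. The matching arms from chromosome 15 had 472 reads for miR-17-1-3p, 249 for miR-92a-1-5p and 7 for miR-19b-1-5p over the 4 libraries. The X-linked miRNAs that have no copy on chromosome 15 were near the limit: miR-20b-5p had 1 read in the control, 7 at 1 h and 0 at 3 h and 24 h, and miR-363-3p had 1, 3, 6 and 0.

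The bases past the 3′ end also tell copies apart. The hairpins of Mir92a1 and Mir92a2 part directly after the 21 nt of the RefSeq mature sequence, as these stretches of the RefSeq hairpins (GRCr8) show with the bases past that point in capitals.
Mir92a1: tattgcacttgtcccggcctgTTGA
Mir92a2: tattgcacttgtcccggcctgAGGA
Of the reads that continue past this point, 97.8% in control cells, 97.4% after 1 h, 96.6% after 3 h and 97.6% after 24 h had the T of Mir92a1 next, and between 0.773% and 1.52% had the A of Mir92a2. A T added to a Mir92a2 end after cutting would look the same, and the 2 cannot be told apart. For miR-17-5p the next base is T in Mir17 and C in Mir106a. Of the 181 reads reaching past the mature end at 24 h, 21 had T and 3 had C, against 46 and 8 of 353 in the control, and most of the others had an A that neither gene has. For miR-19b-3p at most 5 reads of a library went past the mature end. Of these 3 of 5 at 1 h and 3 of 4 at 3 h had the T of the X-linked Mir19b2 and none the C of Mir19b1, and here too an added T would look the same.

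Other miRNAs with the members' seeds added little. miR-32-5p, which has the miR-92 seed and lies on chromosome 5, had 53 reads in the control, 38 reads at 1 h, 66 reads at 3 h and 72 reads at 24 h, at 1.35 times the control at 24 h (0.931 to 1.96). miR-92b-3p of chromosome 2 had 23, 13, 23 and 11 reads. Neither reached 100 reads in a library.

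The reads of a member were not all alike at the 3′ end, a feature that the match by 18 nt does not fix. For 7 of the 9 members the most read tag was the RefSeq sequence itself, with 81.6% of the miR-93-5p reads at 24 h and 82.5% in the control. The exceptions were miR-92a-3p and miR-106b-5p, whose most read tags were 1 nt longer. These tags are shown with the bases past the RefSeq end in capitals.
miR-92a-3p: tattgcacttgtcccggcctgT
miR-92a-3p with A: tattgcacttgtcccggcctgTA
miR-106b-5p: taaagtgctgacagtgcagatA
miR-106b-5p shorter: taaagtgctgacagtgcaga
The 22 nt tag held 54.2% of the miR-92a-3p reads at 24 h against 52.1% in the control, and the RefSeq sequence of 21 nt was not among the tags with 10% of the reads.

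At 24 h a larger share of the miR-106b-5p and miR-93-5p reads was shorter than the most read tag. The number of such reads was not larger, at 1281 against 1424 in the control for miR-106b-5p and 998 against 1066 for miR-93-5p. Tags that are the most read tag cut short at its 3′ end made up 24.6% of the miR-106b-5p reads in the control (23.4 to 25.7), 24.9% at 1 h (23.7 to 26.1), 22.5% at 3 h (21.5 to 23.6) and 30.9% at 24 h (29.5 to 32.4). The 20 nt tag shown held 16.3% of the miR-106b-5p reads at 24 h, against 12% in the control (673 and 696 reads). The shorter reads of miR-106b-5p include the RefSeq sequence of 21 nt, with 13.8% at 24 h (12.8 to 14.9) against 11.9% in the control (11.1 to 12.8). The Mir106b hairpin was not used here, so reads cut short of the A at base 22 and reads to which no A was added cannot be told apart. For miR-93-5p the share of shorter reads was 3.32% in the control (3.13 to 3.52), 3.87% at 1 h (3.62 to 4.13), 3.95% at 3 h (3.71 to 4.20) and 5.50% at 24 h (5.17 to 5.84). For miR-25-3p it was 13.4% at 24 h (12.2 to 14.7) against 11.1% in the control (10.1 to 12.1). These are the 3 members of the miR-106b-25 cluster, and their 24 h intervals lay above those of the control. The intervals of miR-17-5p, miR-20a-5p and miR-92a-3p met, and so did those of miR-18a-5p, with 7.87% at 24 h (5.11 to 11.5, on 24 reads) against 3.45% in the control (2.02 to 5.46, on 17 reads). Shorter reads were more frequent at 24 h in this sense for 33% of the 88 miRNAs with 1000 reads in every library and less frequent for 5.68%, with a median share of 11.1% at 24 h against 9.85% in the control. The 3 of 6 members are to be read against that background.

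An added A was a common ending of miR-17-5p, miR-20a-5p, miR-93-5p and miR-18a-5p, while for miR-106b-5p, whose most read tag already ends in A, a further A was in at most 0.172% of the reads. The hairpins of Mir17, Mir20a, Mir93 and Mir18a have a T (or, for Mir106a, a C) after the mature sequence, so an A there does not match these hairpins. For miR-93-5p the tag plus A held 5.46% of the reads in the control (5.21 to 5.71), 6.10% at 1 h (5.79 to 6.42), 6.66% at 3 h (6.36 to 6.98) and 4.75% at 24 h (4.44 to 5.07), highest at 3 h and lowest at 24 h. For miR-17-5p it held 6.87% in the control (6.09 to 7.72), 8.89% at 1 h (7.96 to 9.88), 7.48% at 3 h (6.67 to 8.36) and 5.76% at 24 h (4.89 to 6.72), so that the 1 h library lay above the control and the 24 h library met it. For miR-20a-5p it ran between 3.97% at 24 h and 4.71% in the control, within counting error. For miR-18a-5p it was 1.31% at 24 h, on 4 reads (0.358 to 3.32), against 6.09% in the control, on 30 reads (4.14 to 8.57). miR-92a-3p ended in TA in 20.1% of its reads at 24 h (18.2 to 22.1), against 21.4% in the control (19.9 to 23.0). Of 56 miRNAs with 1000 reads in every library and no A next in the hairpin, the added A was less frequent at 24 h beyond counting error for 17.9% and more frequent for 3.57%. Among the 4 members in that set (miR-17-5p, miR-20a-5p, miR-93-5p and miR-25-3p) miR-93-5p was the one less frequent at 24 h.

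**Figure D4:**
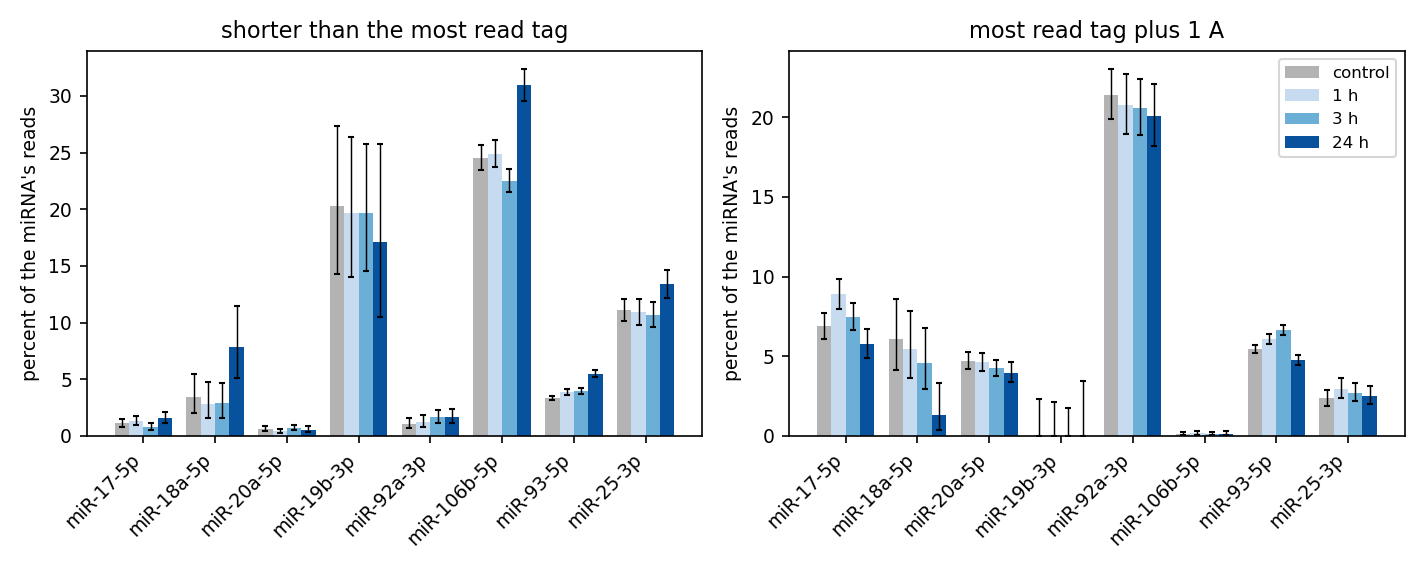
Share of each member's reads that are shorter than its most read tag (left) or are that tag plus 1 A (right) in the 4 libraries, for the 8 members with 100 reads in every library, with exact 95% binomial intervals for counting error. The 24 h bar of miR-106b-5p reaches 30.9% on the left against 24.6% in the control, and miR-92a-3p stands out on the right with 20.1% at 24 h and 21.4% in the control.

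Of the 5′ ends, which set the seed, only starts 1 nt further in were counted beside the RefSeq start, and other starts were not looked for. Reads starting 1 nt further in, which shifts the seed, made up 7.96% of the miR-17-5p reads at 24 h (6.99 to 9.03) against 7.50% in the control (6.71 to 8.35), and 2.51% of the miR-93-5p reads at 24 h (2.29 to 2.74) against 2.52% in the control (2.35 to 2.69). In both the intervals met at every time. For miR-106b-5p the share was at most 0.576%. These reads were not counted in the levels above.

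Among the 86 other annotated miRNAs with 1000 reads on average, those whose profile over the 4 libraries lay closest to the miR-17-92 sum were miR-378a-3p, miR-15b-5p, miR-3473, miR-425-5p and miR-532-5p, at distances of 0.042 to 0.100 in centred log2(RPM + 1). miR-378a-3p had 2046 RPM in the control, 1960 RPM at 1 h, 2007 RPM at 3 h and 1337 RPM at 24 h. The closest to the miR-106b-25 sum were miR-148a-5p, miR-148a-3p, miR-125b-2-3p, miR-532-5p and miR-425-5p, at distances of 0.080 to 0.157. miR-148a-5p had 231 RPM in the control, 174 RPM at 1 h, 181 RPM at 3 h and 133 RPM at 24 h. With 4 libraries such likeness describes these libraries only.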

How the data were processed

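Per the labels' protocols, adapters were ligated to total RNA (0.5 ug), the cDNA was amplified for 12 PCR cycles, inserts of 17 to 52 nt were cut from a gel, and a Genome Analyzer IIx read them. What the authors deposited for each library is a list of distinct read sequences (tags of 16 to 42 nt) with their raw counts, 1 count for each read. Novoalign and rn4 are named, with no role, per the submitters' processing notes. Trimming and filters are not given in the sources used here. A row that names no sequence (5.13% to 7.07% of the reads of a file) was left out.

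Tags were given to the 692 distinct rat mature sequences of RefSeq (GRCr8) by their first 18 nt, the longest common start deciding and ties being shared (0.0823% to 0.166% of the reads). 7 sequences of under 18 nt could not be matched. Tags under 18 nt (1.03% to 1.28% of the reads) were not used. Members and lists were chosen with earlier results of these data known. The named miRNAs were all members, the other arms of their hairpins, annotated miRNAs with the same seeds, tags with 10% of a member's reads, and the 5 closest profiles to each cluster. The comparisons of tag forms, locus bases, pairs of members, GC content and single-base differences were added after seeing the data. Of the marker names, 4 of 5 blood and 1 of 2 neural ones were in the annotation; the epithelial list summed to 3.54 to 6.40 RPM, the striated muscle list to 98.4 to 122 RPM and miR-9a-5p had 31.6 to 43.8 RPM. On made-up data 180 of 180 member tags were matched, and in counts made for 24 h against control 40 of 40 miRNAs 2-fold different and 0 of 87 unchanged ones were called. The made-up tags began with the members' own 18 nt, so that match checks the matching step alone. The made-up counts varied by counting error only, so they give no rate of false calls between real cultures. Intervals came from scipy 1.17.1 under Python 3.11.15, tables from pandas 2.3.3 with numpy 2.4.6, figures from matplotlib 3.10.9, and TMM factors from edgeR 4.0.16 in R 4.3.3. With 1 library per condition no model was fitted.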

Additional observations from a re-analysis of the deposited data

How the results depend on the processing

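Other scalings move all log2 ratios of a time by about the same amount, at 24 h by -0.07 (annotated miRNA reads), 0.27 (TMM factors) and 0.25 (median-of-ratios factors), and at 1 h and 3 h by -0.12 to 0.10. At 1 h, 3 h and 24 h the miR-17-92 sum had log2 ratios of -0.16, -0.10 and -0.67 with miRNA reads and of 0.025, 0.082 and -0.33 with TMM factors, and with median-of-ratios factors 0.032 at 1 h and -0.35 at 24 h, so its side of the control at 1 h and 3 h depends on the scaling. The miR-106b-25 sum stayed below the control under all of them, with -0.39, -0.39 and -0.82, then -0.21, -0.21 and -0.48, then -0.20, -0.24 and -0.50. In the same order of scalings the miR-17 seed had -0.32, -0.31 and -0.81, then -0.14, -0.12 and -0.47, then -0.13, -0.16 and -0.49. The miR-92 seed had -0.47, -0.46 and -0.64 with miRNA reads, -0.29, -0.28 and -0.30 with TMM factors, and -0.28 at 1 h and -0.32 at 24 h with median-of-ratios factors. The miR-18 seed at 24 h had -0.43 with TMM and -0.44 with median-of-ratios factors. The count of 3 members lower at 24 h became 6, 0 and 1 under these scalings, where 23.2%, 5.08% and 6.21% of all miRNAs were lower, and 0 at 2-fold. With the RefSeq sequence alone the miR-17-92 sum had 0.0066, 0.12 and -0.54, the miR-106b-25 sum -0.35, -0.37 and -0.81 and the miR-17 seed -0.26, -0.24 and -0.76, and the cluster ratio within the control library was 3.32, within the 1 h library 2.59, within the 3 h library 2.37 and within the 24 h library 2.75. Counting that form alone leaves out the most read tags of miR-92a-3p and miR-106b-5p. With it miR-92a-3p, then at 12 to 22 reads, had -0.23 at 1 h, 0.17 at 3 h and -0.25 at 24 h, so its side of the control at 3 h turned and its call at 24 h was lost, and miR-106b-5p had 0.017, -0.02 and -0.28. The alternatives not named here (a pseudocount of 10 RPM, 1 substitution in the first 18 nt, minimums of 20 or 1000 reads, tags read once left out and, added after seeing the data, tags starting 1 nt further in) moved none of these values beyond counting error and no count by over 1.5 times. No paired analysis was possible because each condition has 1 library, and for the same reason no library could be left out. Depth limits miR-19a-3p and the minor arms, which had few reads.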

Other observations

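A single-base difference recurred in members that share their 3′ part. Counted from 1 at the 5′ end, G20T tags, otherwise identical to the RefSeq sequence, made up 2.56% of the miR-93-5p reads of either form at 24 h and 2.69% in the control, 1.40% and 1.53% for miR-20a-5p, and 1% and 1.45% for miR-17-5p. G19T in the same miRNAs was 0.216% at 24 h and 0.294% in the control for miR-93-5p, 0.194% and 0.329% for miR-20a-5p, and 0.263% and 0.337% for miR-17-5p. Over 36 annotated miRNAs with a G at base 20 the median share of G20T was 1.37% at 24 h and 1.59% in the control, and over 27 with a G at base 19 that of G19T was 0.263% and 0.481%. The cause was not tested.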
